A study of Mus musculus with 20 samples.

Results

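The 10 genes described here, Peg3, Usp29, Mest, Peg10, Sgce, Snrpn, Ndn, Nnat, Impact and Zdbf2, are imprinted mouse genes known to be expressed from the chromosome inherited from the father. They are taken by symbol, with no measured value in the rule, but were chosen with earlier results of these data known. All 10 were found among the 23361 entries of the deposited gene tables. Polyadenylated RNA was sequenced with a stranded protocol in 20 libraries of cultured mouse cells during the conversion of embryonic stem cells (ESC) to epiblast stem cells (EpiSC). Per the labels, 2 lines were followed, the female line PGK and the male line E14. Day 0 cells were kept in 2i medium, in which 2 kinase inhibitors hold cells in the naive state. Cells of the later stages had been moved to N2B27 medium with activin A and Fgf2 on fibronectin, which favours the primed state of the post-implantation epiblast, and were split at day 4 and then repeatedly until day 30. The 5 stages were day 0, day 4, day 10, days 19 to 23 and days 27 to 30, each sampled once in experiment diff2 and once in experiment diff3, for 10 groups of 2 libraries. Each sex is represented by 1 line, and a difference of sex cannot be told apart from one of line.

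Levels are given as CPM, the count of a gene scaled to a common library total, with the diff2 library before the diff3 library. Totals ranged from 2020254 to 26936415 counts. The shallowest libraries were E14 diff3 at day 0 and day 4, in which 3 counts equal 0.888 and 1.48 CPM, while in the other libraries 3 counts equal 0.111 to 0.253 CPM. Fold changes are on the log2 scale, and p-values come from edgeR's quasi-likelihood test. The standard error beside a fold change is derived, as its absolute value over the square root of the F statistic of that test. A gene is called where its p-value, adjusted by Benjamini-Hochberg over all genes tested, is under 0.05. All 10 genes passed the filter on low counts in the fits of PGK, of E14 and of both lines. The summed CPM of 8 naive markers was 4219 to 5186 in PGK and 4752 to 6176 in E14 at day 0, and 69.8 to 97.1 in PGK and 89.7 to 132 in E14 at days 27 to 30. The sum of 7 primed markers was 1238 to 1339 in PGK and 1241 to 1588 in E14 at days 27 to 30, against 69.5 to 93.0 in PGK and 56.8 to 115 in E14 at day 0.

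An imprinted gene is marked in the parental germ line, most often by DNA methylation of a control region on 1 of the parental copies, and the mark is carried through the cell divisions of the embryo. For most of these 10 genes the maternal control region is the methylated one, and the unmethylated paternal copy is transcribed. The KRAB zinc finger protein ZFP57 and its partner TRIM28 protect such methylation in mouse embryos and ESC, while DNMT1 and UHRF1 copy it at replication. Several of the genes are best known from the placenta, the hypothalamus and growth control. The counts sum reads of both parental copies, so a level says nothing of which copy was read.

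Promoter windows of 300 bases, from 250 before to 50 after each RefSeq start on GRCm38.p6, were on hand for 7 of the 10 genes, 13 windows in all. They are shown because they hold the arrangement that the results below return to: the start that Peg3 and Usp29 share, the imprinted Mest start, the Nnat start, and the 2 starts of Zdbf2. Capitals mark matches, on either strand, to TGCCGC, the core hexamer that ZFP57 recognizes when methylated, or to CCATNTT, the core of the YY1 motif. The 2 motifs did not overlap in these windows.
Peg3, chr7:6730370-6730669, minus strand: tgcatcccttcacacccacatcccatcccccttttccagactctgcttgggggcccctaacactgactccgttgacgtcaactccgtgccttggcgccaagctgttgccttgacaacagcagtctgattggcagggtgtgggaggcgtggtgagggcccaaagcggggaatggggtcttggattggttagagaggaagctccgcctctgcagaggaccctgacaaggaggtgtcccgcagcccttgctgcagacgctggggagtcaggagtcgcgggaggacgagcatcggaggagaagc
Mest, chr6:30737800-30738099, plus strand: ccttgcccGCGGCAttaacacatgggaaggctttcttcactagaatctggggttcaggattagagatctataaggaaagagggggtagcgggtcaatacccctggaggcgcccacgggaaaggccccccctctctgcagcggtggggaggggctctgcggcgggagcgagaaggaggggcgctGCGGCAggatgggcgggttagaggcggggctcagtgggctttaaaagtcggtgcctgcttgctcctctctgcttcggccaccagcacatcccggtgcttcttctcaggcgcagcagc
Nnat, chr2:157559828-157560127, plus strand: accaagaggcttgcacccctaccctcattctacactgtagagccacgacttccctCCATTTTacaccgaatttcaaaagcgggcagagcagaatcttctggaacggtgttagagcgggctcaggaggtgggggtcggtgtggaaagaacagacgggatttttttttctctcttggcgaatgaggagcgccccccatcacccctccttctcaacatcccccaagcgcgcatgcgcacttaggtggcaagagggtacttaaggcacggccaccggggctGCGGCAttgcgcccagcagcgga
Zdbf2 upstream start, chr1:63200108-63200407, plus strand: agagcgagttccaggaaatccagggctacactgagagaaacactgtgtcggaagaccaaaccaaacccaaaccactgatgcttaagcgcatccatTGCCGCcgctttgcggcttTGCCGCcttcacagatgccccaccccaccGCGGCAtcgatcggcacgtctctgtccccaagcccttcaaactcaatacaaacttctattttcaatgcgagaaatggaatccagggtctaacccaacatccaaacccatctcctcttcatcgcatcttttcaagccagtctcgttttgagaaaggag
Zdbf2 downstream start, chr1:63273019-63273318, plus strand: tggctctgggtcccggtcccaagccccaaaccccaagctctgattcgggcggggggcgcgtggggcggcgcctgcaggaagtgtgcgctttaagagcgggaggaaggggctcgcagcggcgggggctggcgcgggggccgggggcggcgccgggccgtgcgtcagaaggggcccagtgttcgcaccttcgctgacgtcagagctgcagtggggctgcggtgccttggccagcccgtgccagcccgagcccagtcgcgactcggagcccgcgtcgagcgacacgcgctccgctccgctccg

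The upstream Zdbf2 window held 3 hexamers, the Mest window 2 and the Nnat window 1, and the most downstream of 4 Snrpn windows also held 1. The Peg3, Usp29 and Ndn windows held none. Of 32851 RefSeq windows of the same length, 11.6% held at least 1 hexamer, 1.53% at least 2 and 0.234% at least 3. The YY1 core was found in the Nnat window only among the 7 genes, and in 16.1% of all windows. The 2 Zdbf2 windows lie 72.9 kb apart and differed in composition, with 15 CpG in the upstream and 38 CpG in the downstream window. A match is a description of these letters and was not tested for binding.

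As a group the 10 genes, chosen with earlier results known, were higher after differentiation in both lines. In PGK, 7 of 10 rose and 0 fell at days 27 to 30 against day 0, where 25.1% of 15284 genes were called in either direction, and 6 of 10 rose and 0 fell in E14, where 13.7% of 14501 genes were called. Mest, Peg3, Sgce, Snrpn and Zdbf2 rose in both lines. Leaving out the PGK library of diff3 at the last stage gave 4 called members in place of 7. The median log2 fold change of the 10 genes was 1.91 in PGK and 2.70 in E14, against -0.06 and 0.19 over all genes tested. In every PGK library from day 10 on the 10 genes held 0.445% to 0.610% of all counts, against 0.0640% and 0.150% at day 0. In E14 they held 0.285% and 0.293% at days 27 to 30, against 0.0373% and 0.0658% at day 0. In such bulk samples fewer expressing cells and less RNA per cell cannot be told apart.

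**Figure D1:**
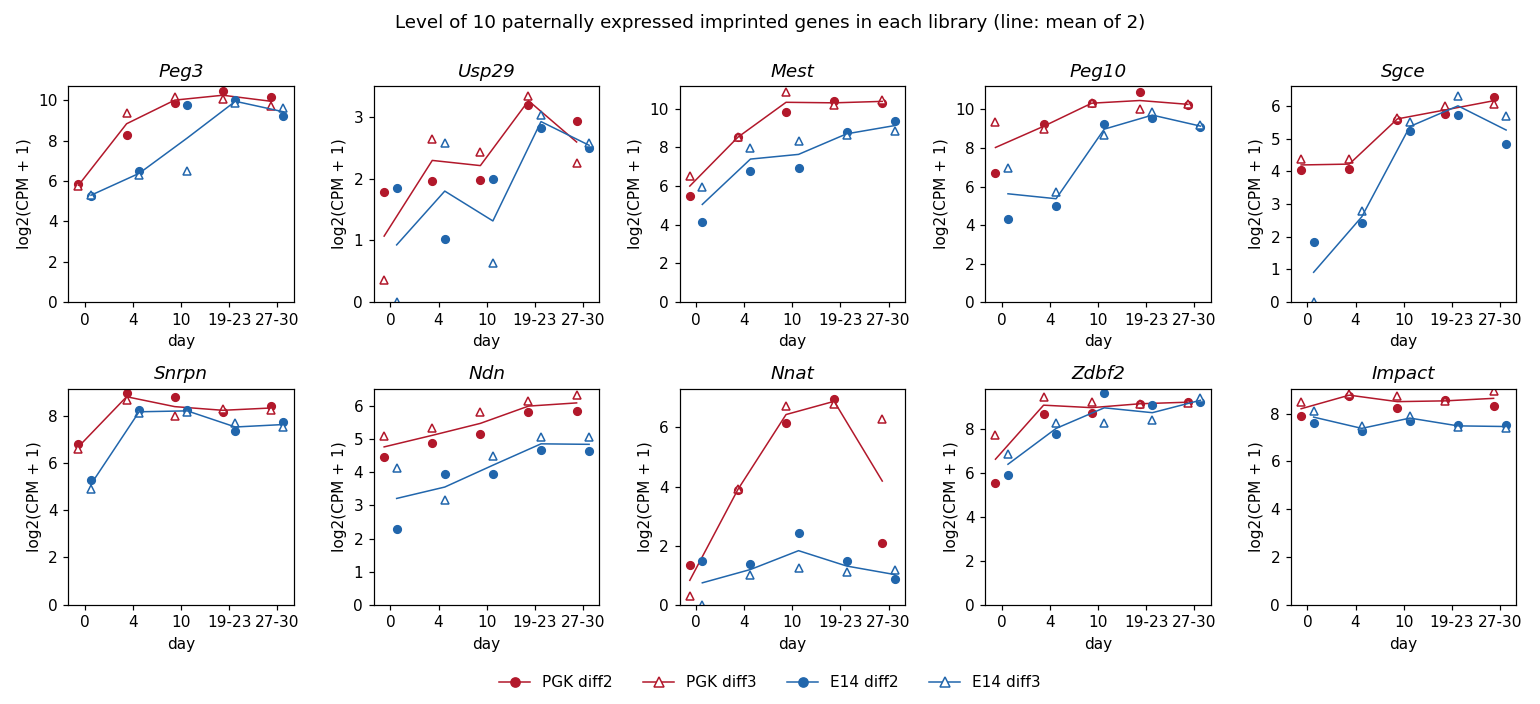
Level of each of the 10 genes in every library, as log2(CPM + 1) on the vertical axis, by day of differentiation, with PGK points left of E14 points, circles for diff2, triangles for diff3 and a line through the mean of the 2 libraries. In both lines every Peg3 library from days 19 to 23 on lies above both of day 0, 1 of the 2 PGK libraries of Nnat is back at 3.27 CPM at days 27 to 30, and Impact lies between 154 and 499 CPM throughout.

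Shorter intervals were compared in the same way. At day 4 against day 0, 4 of 10 genes rose in PGK (Peg3, Mest, Snrpn and Zdbf2), where 14.8% of all genes were called, and 1 of 10 in E14 (Snrpn), where 9.56% were called. At day 10 against day 4, 2 of 10 rose in PGK (Mest and Sgce), where 1.51% of all genes were called, and 0 of 10 in E14, where 0.186% were called. In the last interval, days 27 to 30 against day 10, 0 of 10 were called in either line, with 0% of all genes called in PGK and 0% in E14. At an unadjusted p under 0.05, 4 members passed in E14 at day 10 against day 4, as did 8.62% of all genes. In the last interval 0 members passed in either line, against 3.51% of all genes in PGK and 4.23% in E14. DESeq2 also called 0 members there, and 34 genes in PGK and 91 in E14 in all. In E14 at day 10 against day 4 it called Peg3, Peg10 and Sgce, 3 of 520 genes called. In E14 at day 4 against day 0, Peg10 had -1.47 without the diff2 library of day 0. Without the diff3 library Mest had 3.43 and Zdbf2 2.11. Without the libraries that carry a code in their titles, 1 shallow library remains at each of these stages. Mest then had 2.04, Zdbf2 1.43, Peg3 0.98 and Peg10 -1.22. Sgce and Usp29 had 0 counts in the day 0 library that remains, so no fold change is given.

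**Figure D2:**
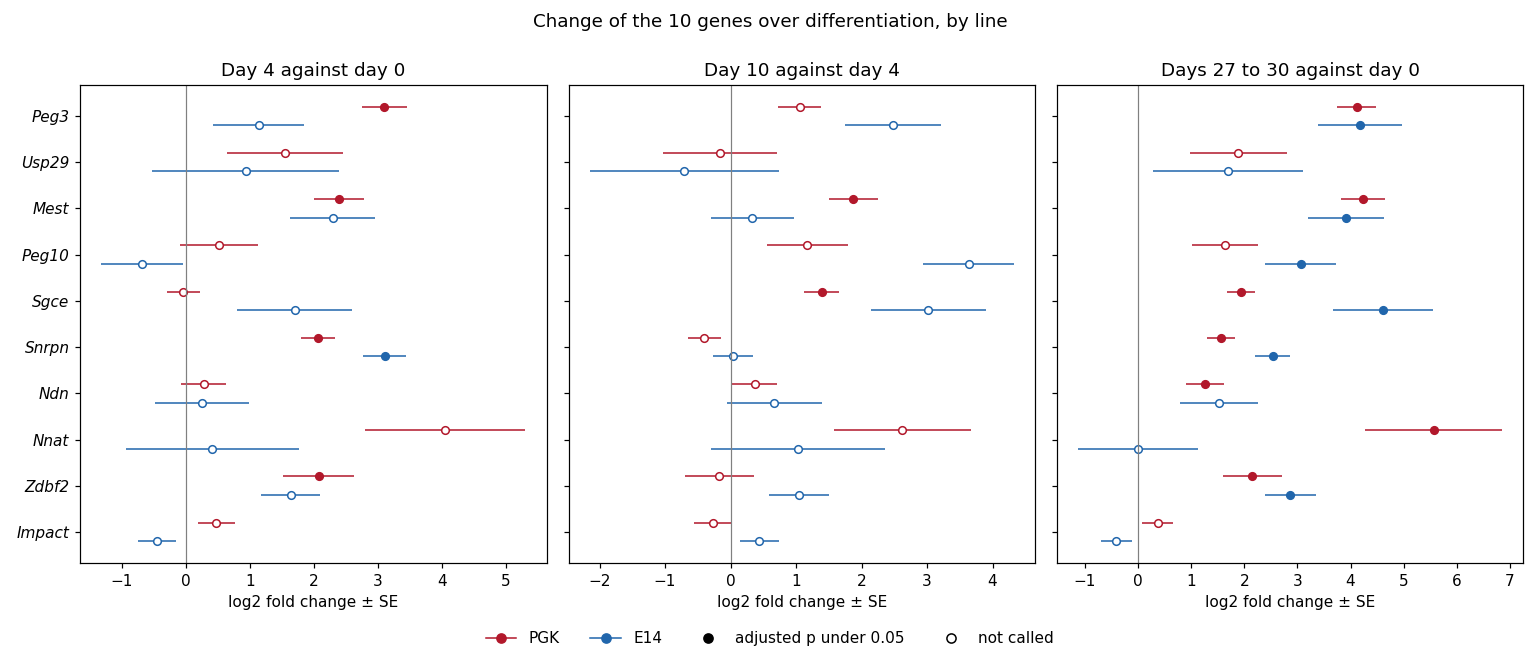
Log2 fold change of each gene with its standard error at day 4 against day 0, day 10 against day 4, and days 27 to 30 against day 0, with the PGK point above the E14 point and filled points for called changes. In the last panel 7 PGK points and 6 E14 points are filled, all of them right of 0.

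Peg3 encodes a large zinc finger DNA-binding protein (chromosome 7, 6703892 to 6730431, minus strand, GENCODE M21 on GRCm38). In PGK libraries Peg3 had 55.7 and 52.8 CPM at day 0, 314 and 658 at day 4, 933 and 1126 at day 10, 1393 and 1054 at days 19 to 23 and 1140.3 and 851 at days 27 to 30. All 8 later PGK libraries lay above both day 0 libraries. In E14 libraries Peg3 had 37.3 and 39.1 CPM at day 0, 87.5 and 76.7 at day 4, 861 and 89.5 at day 10, 1046 and 926 at days 19 to 23 and 601 and 784 at days 27 to 30. The E14 libraries of day 10 disagreed, diff3 being near the day 4 level and diff2 near the late level. Peg3 rose at day 4 against day 0 in PGK, by 3.11 ± 0.35 (adjusted p = 0.000361), and the change in E14 was 1.14 ± 0.71 (adjusted p = 0.35). Without the diff3 library of day 4 the PGK value was 2.48. Peg3 rose in both lines at days 27 to 30 against day 0, by 4.12 ± 0.37 in PGK (adjusted p = 7.01e-05) and 4.17 ± 0.79 in E14 (adjusted p = 0.00701). The E14 call was lost without the 2 shallow libraries, at adjusted p = 0.0598 and the same fold change. At day 10 against day 4 Peg3 was not called, at 1.05 ± 0.33, adjusted p = 0.192, in PGK and 2.48 ± 0.73, adjusted p = 0.268, in E14. It was called in PGK without the diff3 library of day 4 (log2 fold change 1.70, adjusted p = 0.0212) and in E14 without the diff3 library of day 10 (log2 fold change 3.33, adjusted p = 0.0157).

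Usp29, a ubiquitin-specific peptidase gene, starts 147 bp from Peg3 on the opposite strand (chromosome 7, 6730578 to 6967219, plus strand), and their promoter windows share 263 bases. In PGK libraries Usp29 had 2.44 and 0.281 CPM at day 0, 2.88 and 5.21 at day 4, 2.95 and 4.42 at day 10, 8.12 and 9.08 at days 19 to 23 and 6.62 and 3.77 at days 27 to 30. In E14 libraries Usp29 had 2.61 and 0 CPM at day 0, 1.03 and 4.95 at day 4, 2.99 and 0.548 at day 10, 6.05 and 7.16 at days 19 to 23 and 4.66 and 4.97 at days 27 to 30, the 0 at day 0 falling in a shallow library. All 8 later PGK libraries lay above both day 0 libraries, while in E14 the libraries of day 4 and day 10 overlapped those of day 0. None of the 15 comparisons called Usp29, and at days 27 to 30 against day 0 its log2 fold change was 1.89 ± 0.91, adjusted p = 0.156 in PGK, and 1.69 ± 1.41, adjusted p = 0.46, in E14. Without the diff2 library of PGK day 0 it was called in PGK, at a log2 fold change of 4.10 (adjusted p = 0.0178), and at day 4 against day 0 at 3.76 (adjusted p = 0.0341), against 1.55 ± 0.90, adjusted p = 0.287, with both libraries. In E14 the late change was called without the diff2 library of day 0 (adjusted p = 0.0407), where the library that remains has 0 counts and no fold change is given. Per kilobase of exon, Peg3 measured 74.7 ± 15.4 CPM in PGK and 51.9 ± 9.72 CPM in E14 at days 27 to 30, while Usp29 measured 0.287 ± 0.111 and 0.266 ± 0.0119 CPM (SD, n = 2 each). Among the 10 genes Peg3 ranked 5 in PGK and 4 in E14 on this scale, and Usp29 ranked 10 in both.

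Mest, the mesoderm-specific transcript, encodes a hydrolase-like protein of the endoplasmic reticulum (chromosome 6, 30723547 to 30748465, plus strand), and its 3' end overlaps Copg2 on the other strand. In PGK libraries Mest had 44.2 and 90.2 CPM at day 0, 373 and 366 at day 4, 908 and 1843 at day 10, 1354 and 1189 at days 19 to 23 and 1264 and 1415 at days 27 to 30. Each step to day 10 brought higher values without overlap between stages. In E14 libraries Mest had 16.6 and 61.9 CPM at day 0, 111 and 253 at day 4, 121 and 328 at day 10, 442 and 394 at days 19 to 23 and 672 and 468 at days 27 to 30. The E14 values of day 4 and day 10 overlapped. Mest rose by 2.39 ± 0.39 at day 4 against day 0 in PGK (adjusted p = 0.0026), where leaving out the diff3 library of day 0 gave 3.04. In E14 the same change was 2.30 ± 0.67, adjusted p = 0.0569, and with the experiment as a replicate block adjusted p = 0.0287. Without the diff3 library of day 0 the E14 value was 3.43 (adjusted p = 0.0192).

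At day 10 against day 4 Mest rose by 1.87 ± 0.38 in PGK (adjusted p = 0.0424). This call was lost without the diff2 library of day 4 (adjusted p = 0.199), without the diff3 library of day 4 (0.126) and without the diff3 library of day 10 (0.253, log2 fold change 1.25). Over the whole course, days 27 to 30 against day 0, Mest rose by 4.24 ± 0.42 in PGK (adjusted p = 0.000117) and 3.92 ± 0.71 in E14 (adjusted p = 0.00605). Leaving out 1 day 0 library moved the PGK value to 4.85 without diff3, and the E14 value to 3.26 without diff2 and 5.06 without diff3, with the calls kept. Copg2, which is known to be biased to the maternal copy in some tissues, was not called in either line at days 27 to 30 against day 0, at -0.68 ± 0.26, adjusted p = 0.0806 in PGK, and 0.23 ± 0.42, adjusted p = 0.75, in E14.

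Peg10 derives from a retrotransposon, encodes Gag-like and Pol-like proteins and is required for placental development (chromosome 6, 4747306 to 4760517, plus strand). In PGK libraries Peg10 had 104 and 644 CPM at day 0, 604 and 514 at day 4, 1294 and 1269 at day 10, 1897 and 1049.8 at days 19 to 23 and 1208 and 1251 at days 27 to 30. At day 0 the diff3 library lay near the day 4 level and the diff2 library well under it. In E14 libraries Peg10 had 18.8 and 121 CPM at day 0, 31.1 and 52.0 at day 4, 615 and 411 at day 10, 751 and 927 at days 19 to 23 and 542 and 582 at days 27 to 30. Both E14 experiments stayed low at day 4 and were high from day 10. In PGK, days 27 to 30 against day 0 gave 1.64 ± 0.62, adjusted p = 0.0806. Without the diff3 library of day 0 the PGK change was 3.49 (adjusted p = 0.000316), and that at day 4 against day 0 was 2.40 (adjusted p = 0.00185).

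In E14, Peg10 rose by 3.06 ± 0.67 at days 27 to 30 against day 0 (adjusted p = 0.0147). The value was 2.26 without the diff2 and 4.85 without the diff3 library of day 0, and the call was lost without the diff3 library of days 27 to 30 (adjusted p = 0.0513). At day 10 against day 4 the E14 change was 3.63 ± 0.69, adjusted p = 0.0779, and adjusted p = 0.0472 with the experiment as a replicate block. Without the 2 shallow libraries it was 4.04 (adjusted p = 0.0159). At day 4 against day 0 Peg10 in E14 had -0.68 ± 0.64, adjusted p = 0.546, and -1.47 (adjusted p = 0.0225) without the diff2 library of day 0.

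Sgce, which encodes epsilon-sarcoglycan, a membrane protein whose loss on the paternal copy causes myoclonus dystonia in humans, starts 99 bp from Peg10 and runs the other way (chromosome 6, 4674350 to 4747207, minus strand). In PGK libraries Sgce had 15.3 and 19.5 CPM at day 0, 15.8 and 19.6 at day 4, 46.8 and 48.1 at day 10, 53.0 and 62.8 at days 19 to 23 and 76.0 and 64.9 at days 27 to 30. Day 0 and day 4 libraries overlapped in PGK, and all 6 later libraries lay above them. In E14 libraries Sgce had 2.54 and 0 CPM at day 0, 4.34 and 5.94 at day 4, 36.3 and 44.6 at day 10, 51.2 and 77.4 at days 19 to 23 and 27.5 and 50.6 at days 27 to 30. The diff3 library of E14 day 0 is shallow and had 0 counts of Sgce, against 34 counts in diff2. Both E14 libraries of day 10 lay above both of day 4, but the change was not called (3.02 ± 0.88, adjusted p = 0.263).

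Sgce rose by 1.39 ± 0.27 at day 10 against day 4 in PGK (adjusted p = 0.0346). The call was lost without any 1 of the 4 libraries compared, at adjusted p = 0.058 to 0.254. From day 0 to days 27 to 30 Sgce rose by 1.93 ± 0.27 in PGK (adjusted p = 0.000735) and 4.62 ± 0.94 in E14 (adjusted p = 0.0105). Without the diff3 library of day 0 the E14 value was 3.88. Without the diff2 library the remaining E14 day 0 library is the 1 with 0 counts, so no fold change is given.

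Snrpn encodes SmN, a spliceosomal Sm protein, in the region that corresponds to human Prader-Willi syndrome (chromosome 7, 59982495 to 60140219, minus strand). In PGK libraries Snrpn had 110.1 and 94.2 CPM at day 0, 491 and 402 at day 4, 443 and 249 at day 10, 284 and 313 at days 19 to 23 and 336 and 303 at days 27 to 30. In E14 libraries Snrpn had 38.0 and 29.02 CPM at day 0, 297 and 274 at day 4, 301 and 286 at day 10, 161 and 207 at days 19 to 23 and 209 and 184 at days 27 to 30. In both lines day 4 lay above day 0 without overlap, and the libraries from day 19 on lay below day 4 without overlap but above day 0. Snrpn was the member called at day 4 against day 0 in both lines, at 2.06 ± 0.27, adjusted p = 0.000749 in PGK, and 3.11 ± 0.33, adjusted p = 0.000721, in E14. The last stage was still higher than day 0, by 1.57 ± 0.26 in PGK (adjusted p = 0.00208) and 2.53 ± 0.32 in E14 (adjusted p = 0.000949). Snurf, which shares its transcript, had counts that were 5.78% to 6.12% of the Snrpn counts in every library, so the split of reads between the 2 symbols is uncertain.

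Ndn encodes necdin, a MAGE-family protein of post-mitotic neurons, and lies 2206 kb from the Snrpn start in the same region (chromosome 7, 62346569 to 62350262, plus strand). In PGK libraries Ndn had 20.9 and 32.9 CPM at day 0, 28.5 and 39.9 at day 4, 34.4 and 55.3 at day 10, 56.1 and 71.0 at days 19 to 23 and 57.4 and 79.5 at days 27 to 30. Within each PGK experiment the value was higher at every stage than at the one before. In E14 libraries Ndn had 3.88 and 16.6 CPM at day 0, 14.5 and 7.92 at day 4, 14.4 and 21.4 at day 10, 24.4 and 32.3 at days 19 to 23 and 23.8 and 32.4 at days 27 to 30. The rise at days 27 to 30 against day 0 was 1.26 ± 0.35, adjusted p = 0.0262 in PGK, and in E14 the change was 1.52 ± 0.74, adjusted p = 0.198. Without the diff3 library of day 0, which is shallow, the E14 value was 2.80 (adjusted p = 0.0179). The PGK call was lost without the diff2 library of day 0 (log2 fold change 0.97, adjusted p = 0.129), without the diff3 library at the last stage (log2 fold change 1.001, adjusted p = 0.16) and in the fit of all 20 libraries (adjusted p = 0.0998). In both PGK experiments Snrpn was highest at day 4 and Ndn at days 27 to 30. Magel2, the neighbour of Ndn and also of the MAGE family, rose at day 4 against day 0 in both lines, by 5.91 ± 0.64 in PGK (adjusted p = 0.000306) and 5.54 ± 1.11 in E14 (adjusted p = 0.012), to 28.8 and 18.5 CPM in PGK and 11.5 and 8.41 CPM in E14.

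Nnat encodes neuronatin, a small membrane proteolipid of the endoplasmic reticulum, and lies inside an intron of Blcap on the opposite strand (chromosome 2, 157560078 to 157562522, plus strand). In PGK libraries Nnat had 1.54 and 0.234 CPM at day 0, 13.8 and 14.1 at day 4, 69.8 and 105 at day 10, 124 and 110.4 at days 19 to 23 and 3.27 and 76.5 at days 27 to 30. The 2 libraries of days 27 to 30 disagreed, with diff2 near the day 0 level and diff3 near the level of day 10. In E14 libraries Nnat had 1.79 and 0 CPM at day 0, 1.62 and 0.99 at day 4, 4.32 and 1.37 at day 10, 1.82 and 1.18 at days 19 to 23 and 0.817 and 1.26 at days 27 to 30. The 0 at day 0 and the 0.99 at day 4 fall in shallow libraries, and the latter is 2 counts, under the floor of 3. No E14 library exceeded 4.32 CPM, which was under every PGK library of day 4, day 10 and days 19 to 23. At day 4 against day 0 the PGK change was 4.06 ± 1.25, adjusted p = 0.0554. DESeq2 called it (adjusted p = 0.0202), as did the fit of all 20 libraries (adjusted p = 0.0336). Nnat rose at days 27 to 30 against day 0, by 5.56 ± 1.29 in PGK (adjusted p = 0.0115). This call was lost with the experiment as a replicate block (adjusted p = 0.0629) and with a term for the code in library titles (adjusted p = 0.0619). It was also lost without the filter on low counts (adjusted p = 0.0904). With the diff3 library of the last stage left out the value was 1.93 (adjusted p = 0.115), and without the diff2 library 6.50 (adjusted p = 0.000753). The value was 7.30 without the diff2 library of day 0 (adjusted p = 0.0879) and 4.59 without the diff3 library (adjusted p = 0.147). In E14 the change was -0.01 ± 1.13, adjusted p = 0.998.

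Zdbf2 encodes a DBF4-type zinc finger protein (chromosome 1, 63273265 to 63314576, plus strand). In mouse it is known to be preceded by a longer transcript, Liz, from an upstream start that is active as cells leave the naive state. Gene-level counts do not separate the 2 transcripts. In PGK libraries Zdbf2 had 45.2 and 205 CPM at day 0, 408 and 695 at day 4, 418 and 581 at day 10, 559 and 555 at days 19 to 23 and 594 and 576 at days 27 to 30. In E14 libraries Zdbf2 had 58.9 and 114 CPM at day 0, 214 and 306 at day 4, 781 and 308 at day 10, 529 and 334 at days 19 to 23 and 587 and 658 at days 27 to 30. Every later library lay above both day 0 libraries of its line. The rise at day 4 against day 0 was 2.08 ± 0.55, adjusted p = 0.0306 in PGK, and the change in E14 was 1.64 ± 0.47, adjusted p = 0.0521, and 2.11 (adjusted p = 0.0433) without the diff3 library of day 0. The PGK call was lost without the diff3 library of day 4 (log2 fold change 1.64, adjusted p = 0.155) and without the filter on low counts (adjusted p = 0.157). The value was 1.37 without the diff2 and 3.59 without the diff3 library of day 0.

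Zdbf2 rose at days 27 to 30 against day 0, by 2.15 ± 0.56 in PGK (adjusted p = 0.0187) and 2.86 ± 0.49 in E14 (adjusted p = 0.00437). The PGK value was 1.43 without the diff2 and 3.62 without the diff3 library of day 0. Its call was lost without either library of days 27 to 30, at adjusted p = 0.0595 without diff2 and 0.0679 without diff3, and without the filter on low counts (adjusted p = 0.113).

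Impact, whose protein restrains the amino acid sensing kinase GCN2, lies on chromosome 18 (12955852 to 12992950, plus strand). In PGK libraries Impact had 241 and 359.8 CPM at day 0, 424 and 451 at day 4, 304 and 431 at day 10, 374 and 366 at days 19 to 23 and 318 and 499 at days 27 to 30. In E14 libraries Impact had 193 and 275 CPM at day 0, 154 and 179 at day 4, 209 and 241 at day 10, 182 and 175 at days 19 to 23 and 182 and 169 at days 27 to 30. Its level moved least of the 10 genes with stage, and no change over stages was called in either line in the main fits. Without the libraries that carry a code in their titles, Impact in E14 had -0.62 at days 27 to 30 against day 0, with 1 day 0 library left. Its log2 fold change at days 27 to 30 against day 0 was 0.37 ± 0.28, adjusted p = 0.374 in PGK, and -0.41 ± 0.30, adjusted p = 0.387, in E14. The opposite signs were not shown to differ, since the difference between lines was 0.82 ± 0.40, adjusted p = 0.791.

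In order of level per kilobase of exon, Impact, Peg10 and Snrpn led at day 0 in PGK, at 58.5 ± 16.4, 56.1 ± 57.3 and 47.3 ± 5.20 CPM per kb (SD, n = 2 each), and their ranges overlapped. Usp29 was lowest there at 0.0751 ± 0.0843 CPM per kb. At days 27 to 30 the leaders in PGK were Mest at 339.5 ± 27.2, Peg10 at 184 ± 4.54 and Snrpn at 148 ± 10.9 CPM per kb, which did not overlap. Impact and Peg3 followed at 79.6 ± 25.0 and 74.7 ± 15.4 CPM per kb with overlapping values, then Zdbf2 at 46.2 ± 0.996. In E14 at days 27 to 30 Mest led at 145 ± 36.6, and Snrpn at 91.0 ± 8.17 and Peg10 at 84.2 ± 4.21 CPM per kb overlapped. Nnat stood at 0.568 ± 0.172 CPM per kb in E14 and 21.8 ± 28.3 in PGK.

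**Figure D3:**
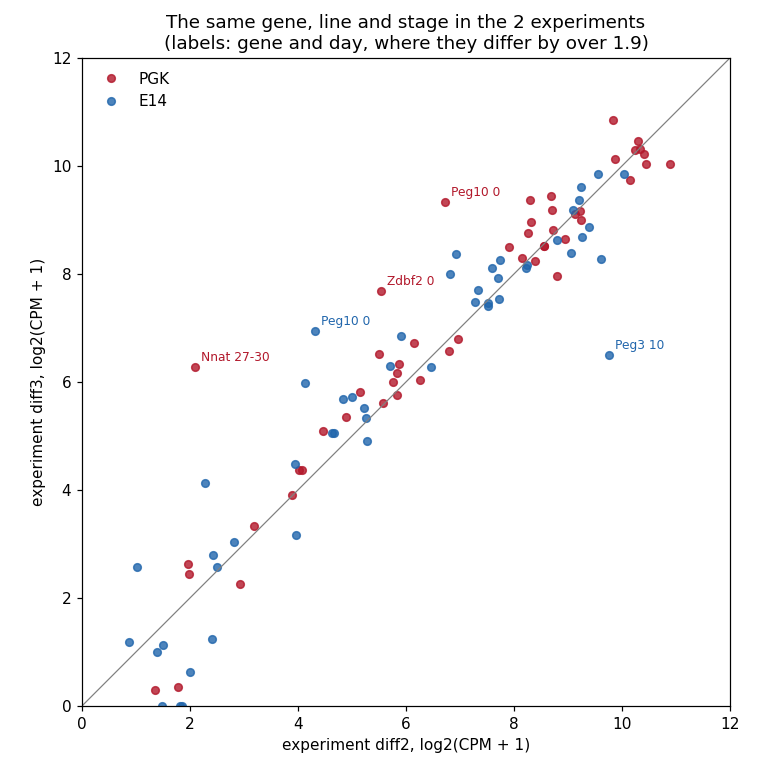
Each point is 1 gene in 1 line at 1 stage, with its log2(CPM + 1) in experiment diff2 on the horizontal and in diff3 on the vertical axis, and the grey line marks equal values. Of 100 points 21 differed by more than 1, and the 5 labelled ones by more than 1.9: Peg10 at day 0 in both lines, Zdbf2 at day 0 and Nnat at days 27 to 30 in PGK, and Peg3 at day 10 in E14.

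Between the lines, the genes tended to be higher in PGK, as did the other paternally expressed genes listed below. The 2 PGK libraries both lay above the 2 E14 libraries for 4 of 10 genes at day 0, 9 at day 4, 7 at day 10, 9 at days 19 to 23 and 8 at days 27 to 30, and for 0 genes did both lie below. Over 15732 genes, 20.3% at day 0, 20.9% at day 4, 13.9% at day 10, 23.5% at days 19 to 23 and 15.5% at days 27 to 30 lay higher in PGK in this way. The test called few of these differences. At day 0, 2 of 10 were called, both higher in PGK, where 0.509% of all genes were called. At day 4, day 10, days 19 to 23 and days 27 to 30, 0 of 10 were called, where 0.165%, 0.0636%, 0.0636% and 0.0572% of all genes were. By edgeR at an unadjusted p under 0.05, 7, 4, 5 and 5 members passed at those 4 stages, all of them higher in PGK, and 6.7%, 3.68%, 4.54% and 2.45% of all genes did. DESeq2 called 4, 2, 1 and 1 members among 235, 78, 89 and 24 genes in all.

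The called genes at day 0 were Sgce and Snrpn. Sgce was higher in PGK by 3.47 ± 0.65 (adjusted p = 0.0261), at 15.3 and 19.5 CPM in PGK and 2.54 and 0 CPM in E14. Without the diff3 library of PGK day 0 this call was lost (adjusted p = 0.0737), and without the diff3 library of E14 the log2 fold change was 2.82 (adjusted p = 0.0319). Snrpn was higher in PGK by 1.66 ± 0.28 (adjusted p = 0.0121), at 110.1 and 94.2 CPM in PGK and 38.0 and 29.02 CPM in E14. Its call was lost without the diff2 library of PGK (adjusted p = 0.0699) and without the diff3 library of E14 (adjusted p = 0.126).

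Peg10 at day 0 differed by 2.54 ± 0.71, adjusted p = 0.136, and was called by DESeq2 (adjusted p = 0.0241), which called 700 genes in all there. Without the diff2 library of PGK its log2 fold change was 3.34. At day 4 the largest difference among the 10 genes was that of Peg10, at 604 and 514 CPM in PGK and 31.1 and 52.0 CPM in E14 (3.77 ± 0.76, adjusted p = 0.0591). Impact had 424 and 451 CPM in PGK and 154 and 179 CPM in E14 (1.40 ± 0.29, adjusted p = 0.0679). With the experiment as a replicate block both were called, at adjusted p = 0.0275 for Peg10 and 0.0202 for Impact. Peg3 at day 10 differed by 1.15 ± 0.59, adjusted p = 1, and by 3.46 (adjusted p = 0.00162) without the diff2 library of E14. For Nnat the differences from day 10 on were 4.98 ± 1.16, adjusted p = 0.289 at day 10, 6.31 ± 1.24, adjusted p = 0.108 at days 19 to 23 and 5.28 ± 1.19, adjusted p = 0.349 at days 27 to 30. Nnat was called by DESeq2 at each of these stages, at adjusted p = 0.000842 at day 10, 1.16e-06 at days 19 to 23 and 0.000429 at days 27 to 30. Without the diff2 library of PGK at days 27 to 30 the log2 fold change there was 6.22.

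**Figure D4:**
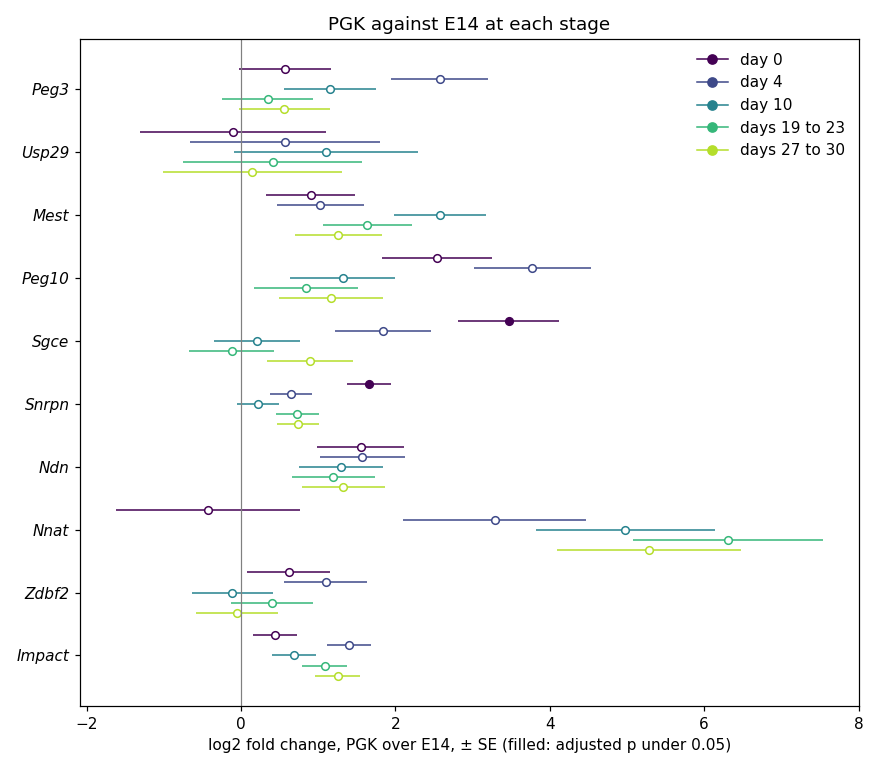
Log2 fold change of PGK over E14 with its standard error for each gene at the 5 stages, from day 0 at the top of each gene's points to days 27 to 30 at the bottom, with filled points for called differences. Most points lie right of 0, and the 2 filled ones are Sgce and Snrpn at day 0.

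Whether the lines changed by different amounts was tested on the change itself. Of the 10 genes, 0 were called for the difference in the change from day 0 to day 4, where 0.0763% of all genes were, and 0 for that from day 0 to days 27 to 30, where 0.0509% were. At an unadjusted p under 0.05, 4 and 3 members passed in these 2 comparisons, as did 7.41% and 6.39% of all genes. DESeq2 called 0 members of 204 genes in the first and 2 of 110 in the second, Nnat and Sgce. Sgce was also called in both by edgeR without the diff2 library of E14 day 0, where the E14 library that remains has 0 counts of it. Peg3 had a difference of 2.00 ± 0.85, adjusted p = 0.606 to day 4 and -0.01 ± 0.83, adjusted p = 1 to days 27 to 30. Nnat had 5.71 ± 1.64, adjusted p = 0.439 to days 27 to 30.

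Marker sums of other cell types moved with stage as well. For 10 fibroblast or feeder markers the summed CPM was 238 to 277 in PGK and 254 to 429 in E14 at days 27 to 30, against 14.6 to 28.98 in PGK and 0 to 19.2 in E14 at day 0, where Col3a1, Acta2 and Twist2 were at 0 in PGK and Col1a2, Lum and Twist2 in E14. For 8 endoderm markers it was 666 to 727 in PGK and 694 to 1011 in E14 at days 27 to 30, against 17.3 to 20.2 and 8.06 to 19.5 at day 0. For 10 neural markers it was 757 to 905 in PGK and 796 to 861 in E14, against 173 to 238 and 291 to 353 at day 0. For 6 mesoderm and primitive streak markers it was 212 to 224 in PGK and 221 to 257 in E14, against 9.25 to 23.3 and 13.8 to 28.1 at day 0. The sum of 5 trophoblast markers was lower late, at 35.4 to 35.6 in PGK and 34.1 to 56.7 in E14, against 92.5 to 94.9 and 90.3 to 186 at day 0. Their part in the changes of the 10 genes was not tested.

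Other imprinted genes, listed with the same earlier results known, gave a more mixed picture. Of 22 further paternally expressed genes, 19 were tested in PGK and 18 in E14. At days 27 to 30 against day 0, 4 rose and 3 fell in PGK, where 25.1% of all genes were called. In E14, where 13.7% were called, 4 rose and 3 fell. The median log2 fold change was 0.39 in PGK and 0.72 in E14. Snurf, which shares the reads of Snrpn, is among the risers in both lines. Igf2, the fetal growth factor gene, rose by 8.63 ± 0.75 in PGK (adjusted p = 6.16e-05) and 8.90 ± 1.23 in E14 (adjusted p = 0.0014). Slc38a4, an amino acid transporter gene, fell by 1.51 ± 0.36 in PGK (adjusted p = 0.012) and 1.27 ± 0.37 in E14 (adjusted p = 0.0442). Plagl1, a zinc finger gene, fell to 39.8 and 35.6 CPM in PGK at days 27 to 30, against 194 and 240.3 CPM at day 0 (adjusted p = 9.89e-05). In E14 it had 0 counts in both libraries of days 27 to 30, against 8.65 and 6.52 CPM at day 0 (adjusted p = 0.00758). Plagl1 was called higher in PGK at each of the 5 stages. For PGK against E14 the median log2 fold change of these other paternally expressed genes was 0.93 at day 0, 1.05 at day 4 and 0.29 at day 10. It was 0.58 at days 19 to 23 and 0.70 at days 27 to 30. Over all genes tested the medians at the 5 stages were 0.15, 0.04, -0.04, -0.001 and -0.03.

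Of 33 maternally expressed genes, 27 were tested in PGK, of which 11 rose and 4 fell at days 27 to 30 against day 0, and 29 in E14, of which 7 rose and 1 fell. Over all genes tested, 25.1% were called in PGK and 13.7% in E14. The median log2 fold changes of the maternally expressed genes were 1.13 in PGK and 0.95 in E14. For PGK against E14 their medians were -0.06 at day 0, -0.25 at day 4, -0.46 at day 10, -0.50 at days 19 to 23 and -0.42 at days 27 to 30. Calcr, the calcitonin receptor gene, which lies within 1 Mb of Peg10 and Sgce, had 34.9 and 25.8 CPM in PGK and 48.9 and 58.1 CPM in E14 at days 27 to 30, against 0 and 0.608 CPM in PGK and 0.149 and 0 CPM in E14 at day 0 (adjusted p = 0.000667 in PGK and 0.000477 in E14). Grb10, which encodes an adaptor that restrains insulin signalling, was called lower in PGK at day 4, with 148 and 106 CPM in PGK and 659.9 and 819.7 CPM in E14 (adjusted p = 0.0194), and at days 19 to 23. The noncoding H19 was called higher in PGK from day 10 on, with 276 and 361 CPM in PGK and 0.673 and 0.611 CPM in E14 at days 27 to 30 (adjusted p = 0.000726). Genes that rose were thus found in the lists of both parental classes. Over all genes tested, 13% rose in PGK and 8.73% in E14 at days 27 to 30 against day 0.

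Regulators of imprints were examined at days 27 to 30 against day 0. Zfp57 fell to 81.4 and 65.9 CPM in PGK and 104 and 110.4 CPM in E14 at days 27 to 30, against 316 and 565 CPM in PGK and 564 and 1011 CPM in E14 at day 0. The change was -2.66 ± 0.42, adjusted p = 0.00138 in PGK, and -2.86 ± 0.38, adjusted p = 0.00111, in E14. Trim28 was not called, at -0.54 ± 0.25, adjusted p = 0.141 in PGK, and -0.84 ± 0.42, adjusted p = 0.206, in E14. The maintenance methyltransferase gene Dnmt1 was not called either, at -0.73 ± 0.27, adjusted p = 0.0716 in PGK, and -0.59 ± 0.43, adjusted p = 0.383, in E14. Uhrf1 fell in PGK by 1.33 ± 0.31 (adjusted p = 0.0116) and had -1.07 ± 0.33, adjusted p = 0.0538, in E14. Dppa3, which in oocytes and early embryos guards against loss of methylation, had 0.0628 ± 0.0889 CPM in PGK at days 27 to 30 and 42.9 ± 25.0 CPM at day 0 (SD, n = 2 each), while in E14 it had 0.0407 ± 0.0576 and 1.83 ± 2.58 CPM.

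The de novo methyltransferase genes Dnmt3a and Dnmt3b rose in both lines at days 27 to 30 against day 0, Dnmt3b by 4.22 ± 0.30 in PGK (adjusted p = 2.47e-05) and 4.98 ± 0.51 in E14 (adjusted p = 0.000375). Dnmt3a rose by 2.56 ± 0.43 in PGK (adjusted p = 0.00201) and 2.48 ± 0.43 in E14 (adjusted p = 0.0049). Their cofactor gene Dnmt3l was not called, with 80.7 ± 97.0 CPM in PGK and 7.99 ± 11.3 CPM in E14 at day 4, the stage of its highest mean in each line. The dioxygenase genes Tet1 and Tet2, whose products oxidize methylated cytosine, fell in both lines. Tet1 fell by 2.17 ± 0.27 in PGK (adjusted p = 0.000381) and 2.20 ± 0.51 in E14 (adjusted p = 0.0187), and Tet2 by 3.98 ± 0.51 in PGK (adjusted p = 0.000483) and 3.56 ± 0.84 in E14 (adjusted p = 0.0199). Of the 20 regulators listed, 19 were tested in each line. In PGK 4 rose and 6 fell, where 25.1% of all genes were called. In E14, where 13.7% were called, 4 rose and 3 fell. None of the 20 regulators was called between the lines at any of the 5 stages by edgeR. No measure of DNA methylation is analysed here.

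Likeness of course was measured as Pearson's r of log2 CPM over the 20 libraries, which share lines, stages and experiments, so it is given as a description. The genes most like Peg3 were Pam (0.94) and F5 (0.93), and those most like Sgce were Plxnd1 (0.96) and Ifngr1 (0.95). Zdbf2 was nearest Ets1 (0.93) and L3mbtl3 (0.92), Mest nearest Sc4mol (0.91) and Tpm4 (0.90), and Usp29 nearest Rab27a and Wdr48 (0.89 each). Peg10 was nearest Ifih1 and Car2 (0.89 each) and Ndn nearest Ccne2 (0.87) and Peg10 (0.86). Nnat was nearest the imprinted H19 (0.87) and Cyb5 (0.85), and Impact nearest Tubgcp3 (0.91) and the imprinted Peg13 (0.90). Snrpn was nearest Snurf, whose reads it shares, and then Acsl5 (0.95). Among the 45 pairs of members, Peg3 with Usp29 reached 0.74 and Peg10 with Sgce 0.73, ranks 10 and 11. Snrpn with Ndn reached 0.52, rank 36, and the highest pair, Peg10 with Ndn at 0.86, lies on different chromosomes.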

How the data were processed

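Per the submitters' processing notes, CASAVA 1.8.2 and the GRCm38 (mm10) build were used, and Cuffdiff and DESeq2 are named without a role. Which aligner and gene annotation the authors chose, and whether counting used the strand, is not given in the sources used here. The authors deposited raw counts per gene for each line, a normalized signal equal to the counts over a constant of each library, and variance-stabilized values on the log2 scale, per the file headers and the values. Each line has its own tables, and the deposited signal and log2 values were scaled within a line.

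From the counts, CPM was computed per library, with SD over n = 2. Groups were compared by edgeR 4.0.16 under R 4.3.3 (TMM, filterByExpr with a minimum count of 10, robust quasi-likelihood test, Benjamini-Hochberg adjustment, threshold 0.05), in a fit of the 10 libraries of a line (15284 genes in PGK, 14501 in E14, 5 residual degrees of freedom each) or of all 20 libraries for the comparisons between lines (15732 genes, 10 degrees of freedom). The test of PGK at day 4 against day 0 was run on simulated counts with the same spread for all genes. Only the recovery of known fold changes was checked, and the other fits were not checked in this way. In all 15 comparisons were made. Alternatives were RLE size factors, no filter, DESeq2 1.42.0, limma 3.58.1 on the deposited log2 values (between lines, on log2 of the deposited signal plus 1), the experiment as a replicate block, a term for a library code in 6 titles, and leaving out libraries. Coordinates and exon lengths come from GENCODE M21 on GRCm38, and promoters from RefSeq on GRCm38.p6. The exon length of a gene joins the exons of all its annotated transcripts and can exceed that of any 1 transcript. It may also differ from the annotation used for the deposited counts, so levels per kilobase are approximate. The floor of 3 counts covers counting error only.

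The members are taken by symbol, and they and the lists were chosen with earlier results of these data known. The text names the 10 members, up to 4 called genes of each list of other imprinted genes per comparison by smallest adjusted p and 10 regulators. Copg2 was added after its values were seen, as the gene that overlaps Mest. Of the listed genes 2 matched no entry, Snhg14 and Zfp264. The labels name the experiment each library comes from, which pairs libraries of the same experiment. Across 11500 genes, the deviations from group means of same-experiment libraries had Pearson r of -0.23 to 0.53 (median 0.05) over the 20 pairs within a line, 9 of them over 0.1, and -0.16 to 0.48 (median 0.07) over 25 pairs between lines, 11 of them over 0.1. Among days 0, 4 and 10 of both lines r was 0.12 to 0.53 over 15 pairs, all over 0.1. At these stages the diff2 libraries are the 6 with a code in their titles, and the diff3 libraries have none. Experiment and code cannot be told apart there. Among days 19 to 23 and days 27 to 30 of both lines, where no library is coded, r was -0.22 to 0.07. The labels do not say that the experiments were separate thaws or clones, so p-values measure only the spread between these libraries.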

Additional observations from a re-analysis of the deposited data

Results flagged for a closer look

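The difference between lines was not tested at day 10 against day 4 or at days 27 to 30 against day 10. Among the 10 genes in these 2 intervals, 3 changes went one way in both PGK experiments and the other way in both E14 experiments. The share of all genes that meet this rule was not computed, so the 3 changes are given as a description only. For Snrpn at day 10 against day 4, PGK had 443 and 249 CPM at day 10 and 491 and 402 CPM at day 4, and E14 had 301 and 286 CPM at day 10 and 297 and 274 CPM at day 4, so that the mean change in PGK minus that in E14 was -108 CPM. For Impact over the same interval, PGK had 304 and 431 CPM at day 10 and 424 and 451 CPM at day 4, and E14 had 209 and 241 CPM and 154 and 179 CPM, a difference of -128 CPM. At days 27 to 30 against day 10, Impact had 318 and 499 CPM and 304 and 431 CPM in PGK, and 182 and 169 CPM and 209 and 241 CPM in E14, a difference of 90.3 CPM. Impact also went opposite ways in the lines at day 4 and at days 27 to 30, each against day 0, where the difference was tested and not called, at 0.96 ± 0.40, adjusted p = 0.598 to day 4 and 0.82 ± 0.40, adjusted p = 0.791 to days 27 to 30, on the log2 scale.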

How the results depend on the processing

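Over 1920 values of members under an alternative, 0 changed direction where called, 1787 kept their side of the threshold, 30 lost a call and 103 gained one. The counts of members called moved by more than 1.5 times as follows. In PGK at day 10 against day 4 the count was 2, and 0 in the fit of all 20 libraries. In E14 at day 4 against day 0 it was 1, against 2 without the filter, with the replicate block, with the library code term and in the fit of all libraries, 3 with DESeq2 and with limma on the deposited log2 values, and 7 without the coded libraries. In E14 at day 10 against day 4 it was 0, against 3 with DESeq2, 1 with the replicate block and without the 2 shallow libraries, and 2 without the coded libraries and in the fit of all libraries. In E14 at days 27 to 30 against day 10 it was 0, against 2 without the coded libraries.

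Between lines at day 0 it was 2, against 5 with limma, 4 without the coded and 1 without the shallow libraries. At day 4 it was 0, against 1 without the filter, 4 with DESeq2 and with limma, 2 with the replicate block and with the code term, and 5 without the coded libraries. At day 10 it was 0, against 2 with DESeq2, 1 with limma and with the code term, and 3 without the coded libraries. At days 19 to 23 it was 0, against 1 with DESeq2 and with limma and 4 without the coded libraries. At days 27 to 30 it was 0, against 1 with DESeq2, with limma and with the code term, and 2 without the coded libraries. For the difference between lines in the change to day 4 it was 0, against 3 without the coded libraries, and for that to days 27 to 30 it was 0, against 2 with DESeq2 and 4 without the coded libraries. The causes were not tested. The fit without the coded libraries has fewer samples, and each group of days 0, 4 and 10 keeps 1 library, from diff3. The number of all genes called moved as well. Between lines at day 0 it was 80 in the main fit, 700 with DESeq2 and 3012 with limma. At day 4 it was 26, 235 and 396. In E14 at day 4 against day 0 it was 1386, 2856 and 1923. Totals under the remaining alternatives are not given here. In limma between lines, where each table was scaled within its line, the median log2 fold change of all genes was 0.43 to 0.84 rather than near 0, so its counts carry that shift.

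Leaving out 1 library gave 3 to 5 called members in PGK at day 4 against day 0, 0 to 1 at day 10 against day 4 and 4 to 7 at days 27 to 30 against day 0. In E14 it gave 1 to 3, 0 to 1 and 5 to 7. Between lines it gave 1 to 2 at day 0, 0 to 1 at day 10 and at days 27 to 30, and 0 to 1 for each difference of a change. Where it leaves a group with 1 library, that library is assumed to vary like the others. The replicate block changed no count of members called by more than 1.5 times beyond those named and no member's call beyond those given in the report. Depth limits Usp29, Sgce and Nnat in E14, whose day 0 diff3 library had 0 counts of each.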
